A study of Mus musculus with 21 samples.

Results

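A set of 10 genes of bone morphogenetic protein (BMP) signalling were read from a table of 33861 mouse genes by their gene names: Bmp2, Bmp4, Bmp7, Bmpr1a, Id1, Id2, Id3, Smad6, Smad7 and Fst. All 10 were found. The series profiled RNA of mouse epiblast and of pluripotent cells in culture in 21 libraries, each from 1 sample. Formative stem cells (FS) were grown in the medium A3XR as the lines FS1 (passages 10, 11 and 18) and FS2 (passages 12, 13 and 16). Epiblast stem cells (EpiSCs), named E14 in the sample descriptions, were grown in the medium AF or AFX (passages 14, 15 and 16 of each). Single epiblasts were collected at E5.0 (embryos 1, 2 and 4), E5.5 and E6.0 (embryos 1, 2 and 3 of each). Titles call the last group E6.0, while its cell type label reads E6.5. No genetic change is named for any group, and the composition of the media, the mouse strain and the sex of the embryos are not given in the sources used here. Each cultured library came from 1000 cells. Passages of a line are not separate derivations, so the p-values measure only the spread between these samples, which may be technical. FS cells differ from the EpiSCs in line and in medium together, and these cannot be told apart.

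BMPs are secreted ligands of the TGF-beta family. They bind a type II receptor and a type I receptor such as BMPR1A, which phosphorylates SMAD1, SMAD5 and SMAD9. These enter the nucleus with SMAD4 and switch on Id1, Id2 and Id3, whose products lack a DNA-binding region and hold E proteins in inactive pairs. SMAD6 and SMAD7 are inhibitory SMADs that the pathway induces and that restrain it, with SMAD7 also acting on activin and nodal signals. Follistatin, the product of Fst, binds activin tightly and several BMPs more weakly. In the mouse embryo before gastrulation, BMP4 comes mainly from the extraembryonic ectoderm, and BMP2 from the visceral endoderm, both beside the epiblast.

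Total counts ran from 5827093 to 15916800 per library, and each value is a gene's count scaled to that total, as CPM. Genes of ribosomal RNA type with 3 similar loci held 20.0% to 31.7% of the counts. Summed CPM of 8 epiblast markers (Pou5f1, Sox2, Nanog, Otx2, Fgf5, Dnmt3b, Utf1 and Tdgf1) was 1283 to 3099 in cultured libraries and 3502 to 6105 in epiblasts, and none of the 8 was at 0 in any group. Most of the sum was Dnmt3b, with group means of 820 to 1772 CPM in culture and 2533 to 4693 in epiblasts. Pou5f1 and Utf1 means were also higher in every epiblast stage. The means of Sox2, Nanog, Otx2, Fgf5 and Tdgf1 overlapped between culture and epiblast. Nanog was highest in AF (53.6 CPM), and Tdgf1 was 1.72 in FS1 and 1.66 in FS2 against 90.3 in AF. Of 9 feeder fibroblast markers, the summed CPM was 236 to 283 in AF against 21.3 to 56.6 in FS and 33.2 to 59.9 in AFX. Of 13 visceral endoderm markers, it was 66.7 to 102 in AF, 8.67 to 14.2 in FS and 14.5 to 29.1 in AFX. In the epiblasts the same sum was 298 to 839 at E5.0, 49.1 to 89.8 at E5.5 and 27.8 to 34.5 at E6.0. Of these 13, Sox17 (32.5 CPM), Gata6 (18.7), Dab2 (17.1) and Gata4 (10.5) had the highest means in AF, while Afp and Apoa4 were at 0 in every cultured library. Differences were tested with edgeR's quasi-likelihood F-test, two-sided, with Benjamini-Hochberg adjustment over all genes tested. A difference passed at an adjusted p under 0.05. In these bulk libraries fewer expressing cells and less RNA per cell cannot be told apart.

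Against AF, FS cells had lower Bmp2, Bmp4, Id1, Id2, Smad6 and Smad7: 6 of the 10 genes passed, all 6 lower in FS. Of all 16052 genes tested, 19.5% passed and 10.6% were lower in FS. Against AFX, 3 of the 10 passed, Bmp2, Id1 and Id2, all 3 lower in FS, where 8.7% of all genes passed and 4.92% were lower. Both comparisons use the same 6 FS libraries. Between AFX and AF, 1 of the 10 passed, Bmp4, lower in AFX, where 8.73% of all genes passed and 4.42% were lower. Between the FS lines, 1 of the 10 passed, Smad6, lower in FS2, where 3.85% of all genes passed and 1.2% were lower. The median log2 change of the 10 genes was -1.45 for FS against AF, beside 0.02 over all genes, and -1.0016 for FS against AFX, beside 0.0040.

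**Figure D1:**
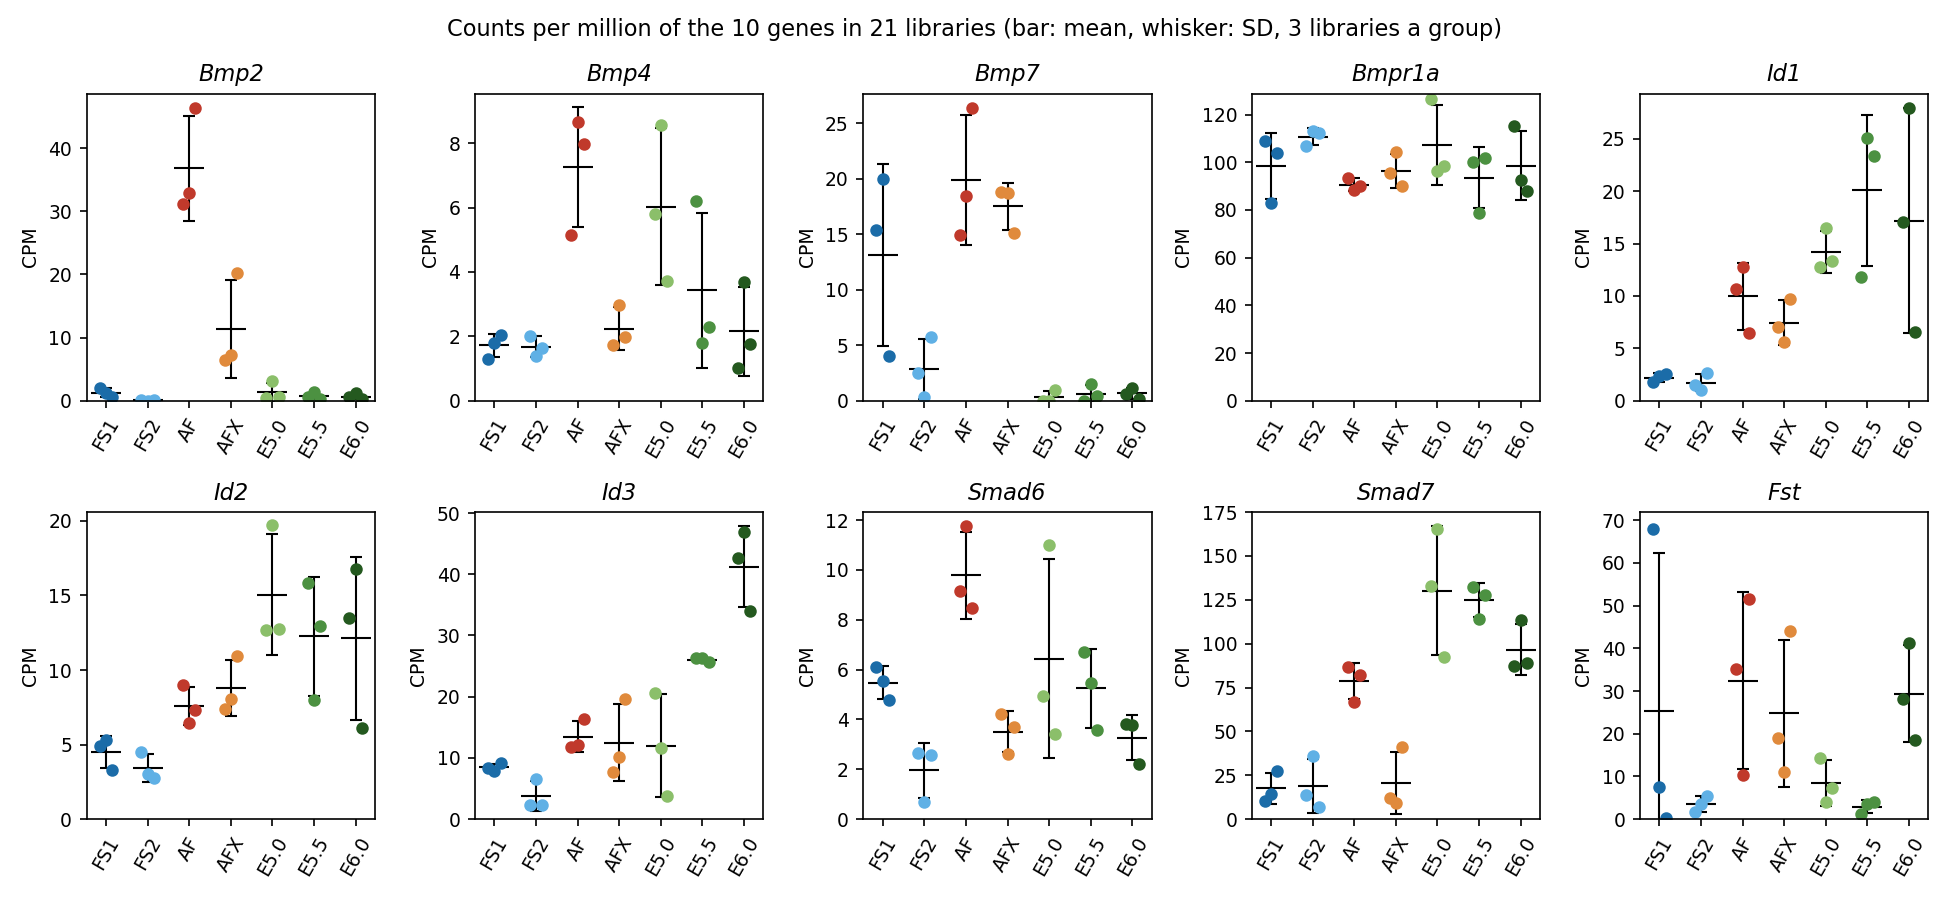
CPM (vertical axis) of each of the 10 genes in the 7 groups of 3 libraries (horizontal axis). Points are libraries, bars are means and whiskers are SDs. Bmp2 reached 31.2 to 46.3 CPM in AF and stayed at or under 3.09 CPM in FS and the epiblasts, while Bmpr1a lay between 78.8 and 126.5 CPM in all 21 libraries.

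Among the ligands, Bmp2 (chr2:133552159-133562885, GRCm38) separated AF from every other group. Its CPM was 31.2, 32.9 and 46.3 in AF and 6.44, 7.27 and 20.3 in AFX at passages 14, 15 and 16. In FS1 it was 1.97, 1.29 and 0.619 at passages 10, 11 and 18, and in FS2 0.176, 0 and 0.188 at passages 12, 13 and 16. The AF, AFX and FS ranges did not overlap, with AF highest and FS lowest. The log2 change of FS was -5.88 ± 0.64 (SE) against AF (adjusted p = 8.27e-05) and -4.18 ± 0.65 against AFX (adjusted p = 0.00183). Both differences passed with each library left out in turn. AFX lay below AF by a log2 change of -1.70 ± 0.64, which did not pass (adjusted p = 0.136). FS1 held 35 counts in all and FS2 5, a CPM ratio of 8.91 with an exact 95% interval of 3.47 to 29.1 that covers counting error only. The change between the lines did not pass over libraries (-3.11 ± 0.88, adjusted p = 0.0713). It passed with DESeq2 (-3.24, adjusted p = 0.00255) and with no low-count filter (-3.10, adjusted p = 9.54e-07). Bmp2 expression per kilobase of exon was 10.4 CPM in AF, 3.19 in AFX, 0.199 in FS and 0.182 to 0.383 in the epiblast stages. The sums of the visceral endoderm, feeder, and primitive streak and mesoderm markers were also highest among cultured cells in AF, the last at 115 to 512 CPM against 36.1 to 91.2 in AFX and 0.879 to 92.6 in FS. Their part in the differences of AF in Bmp2, Bmp4, Id1, Id2, Smad6 and Smad7 was not tested. The visceral endoderm sums of FS (8.67 to 14.2 CPM) and AFX (14.5 to 29.1) also did not overlap. Its part in the differences of FS from AFX in Bmp2, Id1 and Id2 was not tested.

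Bmp4 (chr14:46383520-46390669) was likewise highest among cultured cells in AF. Its CPM was 5.15, 8.67 and 7.98 in AF, 1.72, 2.99 and 1.99 in AFX, 1.31, 1.81 and 2.03 in FS1 and 2.02, 1.39 and 1.63 in FS2. Every AF library was above every FS and AFX library, while FS and AFX overlapped. The log2 change was -2.17 ± 0.28 for FS against AF (adjusted p = 0.000104) and -1.73 ± 0.34 for AFX against AF (adjusted p = 0.00683). FS against AFX did not pass (-0.44 ± 0.30, adjusted p = 0.434). AF and AFX libraries both carry the name E14, so this Bmp4 difference lies within 1 named line. Bmp4 shares 89 exonic bases with the antisense gene Gm15217, and without a stated strand setting their reads cannot be told apart. Mean CPM was also higher in AF than in AFX for 8 of 9 feeder markers (all but Thy1, at 2.22 and 11.2), for 10 of 13 visceral endoderm markers (not Ttr, at 0.043 and 0.087, nor Afp and Apoa4, at 0 in both), for 5 of 8 extraembryonic ectoderm markers (not Ascl2, at 1.21 and 2.39, nor Elf5 and Esx1, at 0 in both) and for 7 of 8 primitive streak and mesoderm markers (all but Mesp1, at 0.075 and 0.086). The extraembryonic ectoderm sum was 83.8 to 184 CPM in AF, 62.3 to 92.5 in AFX and 48.5 to 80.9 in FS. The part of such cells in the Bmp4 difference was not tested. The 250 bases before the RefSeq start sites of Bmp4 (chr14:46390670-46390919, minus strand, GRCm38.p6) and of Smad6 (chr9:64022060-64022309, minus strand), which encodes an inhibitory SMAD, are printed. Only windows that hold no annotated exon bases are printed, and both genes were also highest among cultured cells in AF. Capitals mark matches, on either strand, to GGCGCC and GTCT, motifs known from SMAD-bound elements of BMP target genes.
Bmp4: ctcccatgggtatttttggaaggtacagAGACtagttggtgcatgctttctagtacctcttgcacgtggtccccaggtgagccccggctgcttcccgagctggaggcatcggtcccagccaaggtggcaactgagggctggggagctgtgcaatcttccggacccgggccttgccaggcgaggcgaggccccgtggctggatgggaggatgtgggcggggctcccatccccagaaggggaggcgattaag
Smad6: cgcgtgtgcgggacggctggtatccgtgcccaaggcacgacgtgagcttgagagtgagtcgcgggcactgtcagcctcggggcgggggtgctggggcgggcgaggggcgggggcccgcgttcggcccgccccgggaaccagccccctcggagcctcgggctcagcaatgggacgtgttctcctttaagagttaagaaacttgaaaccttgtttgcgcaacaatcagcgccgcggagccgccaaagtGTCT
Each window holds 0 matches to GGCGCC and 1 to GTCT. Of 32851 promoters of the same length, 9.59% hold the first motif and 82.9% the second. A match is a match of letters and not a binding site, and no match says only that these letters are not in this window.

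Bmp7 (chr2:172868012-172940321) was higher in AF, AFX and FS1 than in any epiblast, while FS2 overlapped the epiblasts. Its CPM was 14.9, 18.4 and 26.4 in AF, 18.8, 18.7 and 15.1 in AFX, 15.4, 20.0 and 4.07 in FS1 and 2.46, 0.349 and 5.78 in FS2. All 9 epiblasts lay at or under 1.47 CPM, with 15 counts at most, and E5.0 embryos 1 and 2 and E5.5 embryo 1 had none. FS1 overlapped the EpiSCs at passages 10 and 11, and FS2 lay below both EpiSC groups. With the lines pooled, the change in FS was -1.41 ± 0.74 against AF (adjusted p = 0.220) and -1.22 ± 0.75 against AFX (adjusted p = 0.378), and neither passed. FS2 taken alone was lower than AF (-2.80, adjusted p = 0.00417) and AFX (-2.60, adjusted p = 0.0103). FS2 against FS1 itself did not pass (-2.11 ± 0.67, adjusted p = 0.124), and passed without FS1 passage 18 (-2.55, adjusted p = 0.0392).

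Bmpr1a (chr14:34410734-34503341), the type I receptor, was at a like level everywhere. Group means ran from 90.7 ± 2.59 CPM in AF (SD, n = 3) to 110.7 ± 3.48 in FS2 (SD, n = 3), or 14.3 to 17.4 CPM per kilobase over the 7 groups. None of its 9 comparisons passed, and the fitted log2 changes lay between -0.31 and 0.14. The largest, AF against E6.0, was -0.31 ± 0.13 (adjusted p = 0.0558), and it passed when genes of ribosomal RNA type and 3 similar loci were left out (adjusted p = 0.0497). The gene shares 290 exonic bases with the antisense gene Gm17110. Per kilobase, the receptor was above each of the 3 ligands in every group.

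**Figure D2:**
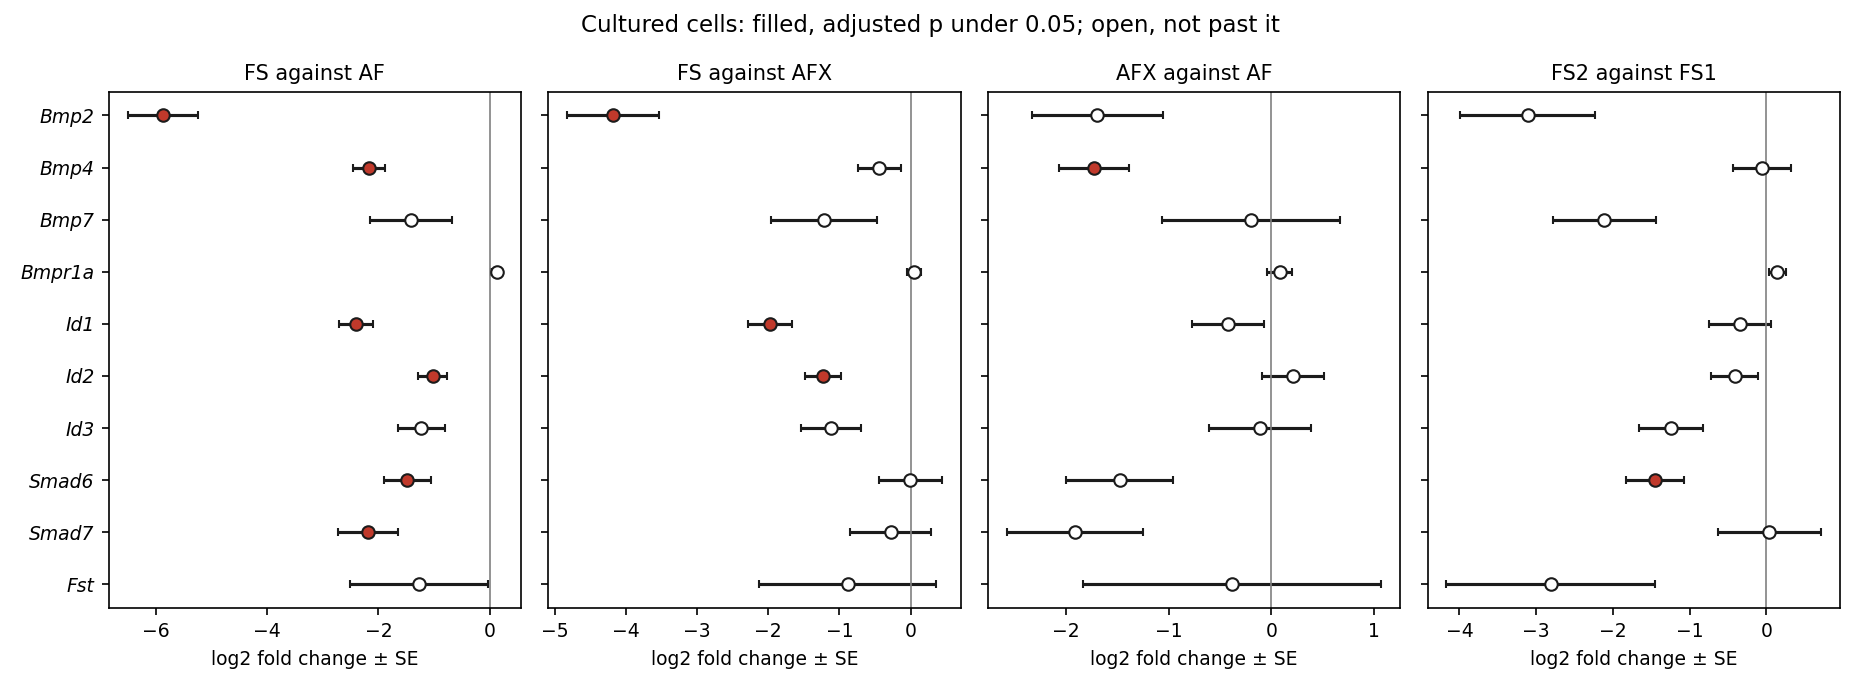
Log2 fold change (horizontal axis) of the 10 genes (vertical axis) in 4 comparisons of cultured cells. Points are edgeR estimates, whiskers are SEs, and filled points have an adjusted p under 0.05. Of the filled points, 6 lie in FS against AF, 3 in FS against AFX and 1 in each of AFX against AF and FS2 against FS1, all left of 0.

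Of the ID genes, direct targets of BMP-SMAD signalling, Id1 and Id2 were lower in FS cells than in AF and AFX, and Id3 passed against neither. Id1 (chr2:152736251-152737410) had 1.75, 2.32 and 2.56 CPM in FS1, 1.49, 1.05 and 2.64 in FS2, 10.7, 12.8 and 6.42 in AF and 7.02, 5.58 and 9.75 in AFX. The 6 FS libraries lay below all 6 EpiSC libraries, while AF and AFX overlapped. FS Id1 was lower by a log2 change of -2.40 ± 0.31 against AF (adjusted p = 9.99e-05) and -1.98 ± 0.31 against AFX (adjusted p = 0.000981), and both passed with each library left out. AFX against AF did not pass (-0.42 ± 0.36, adjusted p = 0.559).

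Id2 (chr12:25093799-25097140) had 4.91, 5.29 and 3.27 CPM in FS1, 4.48, 3.02 and 2.76 in FS2, 9.01, 6.48 and 7.30 in AF and 7.38, 8.05 and 10.96 in AFX. Again no FS library reached an EpiSC library. The log2 change of FS was -1.02 ± 0.26 against AF (adjusted p = 0.0121) and -1.23 ± 0.26 against AFX (adjusted p = 0.00708). Each call rested on 1 EpiSC library: without AF passage 14 the first was -0.89 (adjusted p = 0.0626), and without AFX passage 16 the second was -1.03 (adjusted p = 0.0602). With FS1 as the only FS line they were -0.83 (adjusted p = 0.0786) and -1.03 (adjusted p = 0.0521).

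Id3 (chr4:136143497-136145755) had 8.41, 7.87 and 9.11 CPM in FS1, 2.37, 6.62 and 2.32 in FS2, 11.8, 12.1 and 16.3 in AF and 7.73, 10.1 and 19.6 in AFX. FS lay below AF with no overlap, and FS1 overlapped AFX. Neither pooled difference passed, with -1.23 ± 0.43 against AF (adjusted p = 0.0602) and -1.12 ± 0.43 against AFX (adjusted p = 0.132). The first passed with DESeq2 (adjusted p = 0.0238) and without FS1 passage 18 (-1.39, adjusted p = 0.0445). With FS2 as the only FS line, Id3 was lower than AF (-1.98, adjusted p = 0.0091) and AFX (-1.87, adjusted p = 0.0199), and with the lines fitted as separate groups both also passed (-1.35, adjusted p = 0.00854, and -1.24, adjusted p = 0.0236). FS2 lay below FS1 in every library, by -1.24 ± 0.42, which did not pass (adjusted p = 0.127), and passed without FS2 passage 13 (-1.88, adjusted p = 0.0207). Among the 3 ID genes, the mean per kilobase in FS was 1.70 CPM for Id1, 1.62 for Id2 and 3.42 for Id3, against 8.59, 3.12 and 7.504 in AF.

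Of the 10 genes, Bmp4, Bmpr1a, Id2, Id3 and Smad6 were matched in the RefSeq promoter table. The Id2 window before its RefSeq start (chr12:25096093-25096342, minus strand) holds 1 match to GGCGCC and 1 to GTCT, and the Id3 window (chr4:136143572-136143821, plus strand) holds 0 and 2. Both windows lie within the GENCODE gene spans given above, because longer transcripts start further upstream: 161 of the 250 bases of Id2 and all 250 of Id3 are exonic, in untranslated sequence of those transcripts. The form with GGCGCC, any 5 bases and then GTCT, searched on both strands, was in neither window and in 0.0700% of all promoters.

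The inhibitory SMADs split AF from the other cultured cells. Smad7 (chr18:75367529-75395935) had 86.6, 67.0 and 82.3 CPM in AF, 11.96, 9.09 and 41.3 in AFX, 10.6, 14.6 and 27.6 in FS1 and 14.1, 36.1 and 6.85 in FS2. All AF libraries were above all AFX and FS libraries, which overlapped each other. FS was lower than AF by -2.19 ± 0.54 on the log2 scale (adjusted p = 0.0165), and the call was lost without AF passage 16 (-2.17, adjusted p = 0.0532). AFX against AF was -1.91 ± 0.66 and did not pass (adjusted p = 0.113). AFX passage 16 weighed on that value: without it AFX had a mean of 10.5 CPM rather than 20.8, and the change was -2.91 (adjusted p = 0.0237). FS against AFX did not pass (-0.28 ± 0.57, adjusted p = 0.827).

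Smad6 (chr9:63953076-64022059), the inhibitor more specific to BMP receptors, had 9.14, 11.8 and 8.46 CPM in AF, 4.22, 2.60 and 3.71 in AFX, 6.12, 5.55 and 4.78 in FS1 and 2.64, 0.697 and 2.58 in FS2. AF was again above all other cultured libraries, and the FS lines did not overlap, with FS2 below FS1. FS was lower than AF by -1.48 ± 0.43 (adjusted p = 0.0246). That call was lost without FS2 passage 16 (-1.39, adjusted p = 0.0530), AF passage 14 (-1.54, adjusted p = 0.0556) or AF passage 15 (-1.32, adjusted p = 0.0800), with the change near the same size. AFX against AF had the same size and did not pass (-1.48 ± 0.52, adjusted p = 0.0988). FS2 against FS1 passed narrowly (-1.45 ± 0.38, adjusted p = 0.0464), and the call was lost with any 1 of the 6 FS libraries left out, at adjusted p from 0.0726 to 0.140.

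Fst (chr13:114452290-114458951) varied widely within groups of cultured cells, and none of its 4 comparisons there passed. Its CPM was 67.9, 7.61 and 0.177 in FS1 at passages 10, 11 and 18, and 1.76, 3.49 and 5.40 in FS2 at passages 12, 13 and 16. It was 35.3, 10.4 and 51.6 in AF and 19.1, 11.03 and 44.1 in AFX. FS1 alone spanned the whole cultured range, and AF and AFX overlapped. The FS mean was 14.4 ± 26.4 CPM (SD, n = 6) and was 3.69 ± 2.93 CPM (SD, n = 5) without FS1 passage 10. FS against AF was -1.27 ± 1.24 (adjusted p = 0.529) with that library and -3.24 (adjusted p = 0.0197) without it. With FS2 as the only FS line it was -3.25 (adjusted p = 0.0053). FS against AFX was -0.88 ± 1.25 (adjusted p = 0.740), did not pass without FS1 passage 10 (-2.86) and passed with FS2 as the only FS line (-2.87, adjusted p = 0.0164). AFX against AF was -0.38 ± 1.45 (adjusted p = 0.921), and FS2 against FS1 was -2.81 ± 1.36 (adjusted p = 0.334) and -0.037 without FS1 passage 10. Fst shares 115 exonic bases with the antisense gene Gm47040.

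**Figure D3:**
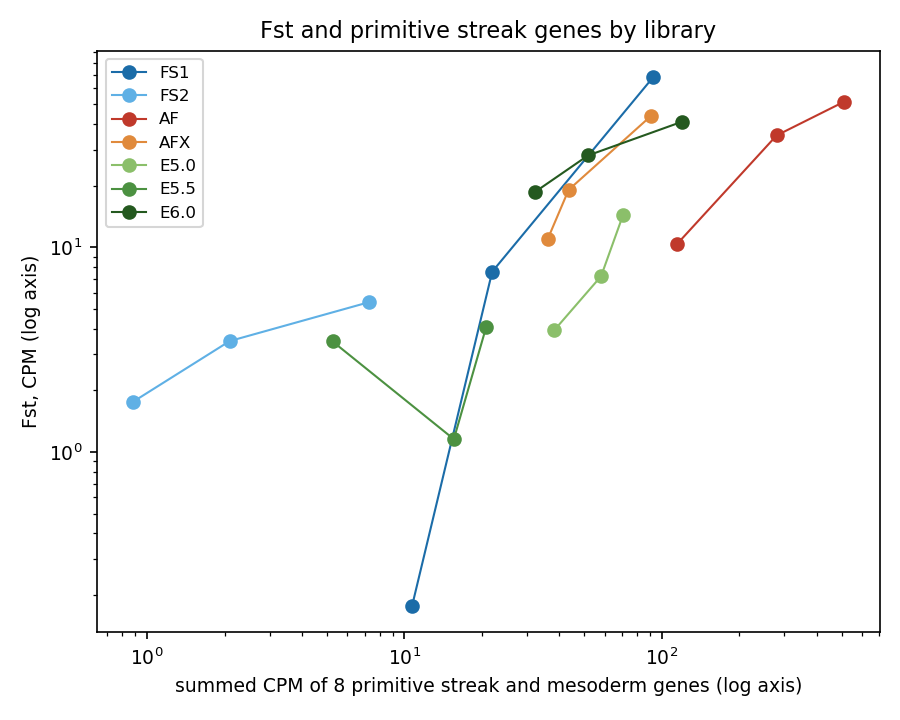
Fst in CPM (vertical log axis) against the summed CPM of 8 primitive streak and mesoderm genes (horizontal log axis), 1 point per library, with lines joining the 3 libraries of a group. The lines rise from left to right in all groups but E5.5.

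Within most groups, libraries with more Fst had a higher sum of primitive streak and mesoderm genes. The summed CPM of T, Mixl1, Mesp1, Evx1, Cdx1, Fgf8, Foxa2 and Lhx1 was 10.7 to 92.6 in FS1, 0.879 to 7.29 in FS2, 115 to 512 in AF and 36.1 to 91.2 in AFX. It was 38.3 to 70.7 at E5.0, 5.26 to 20.8 at E5.5 and 32.1 to 120 at E6.0. The 3 libraries of a group stood in the same order for Fst and for this sum in 6 of 7 groups, all but E5.5. Of 16614 genes, 4 (0.0241%) did so in 6 groups or more, and Fst matched the other 4 marker lists in 0 to 2 groups. This likeness was noticed after the values were seen and is a description of 21 libraries. Of the 8 genes, Cdx1 was at 0 in every library outside AF, and Mesp1 had a mean of 2.47 CPM in FS1 and 0.436 CPM or less in each other group.

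In the epiblast, Fst and Id3 were the genes of the set that passed between stages. From E5.0 to E5.5, 0 of the 9 genes tested passed with edgeR (Bmp7 had too few counts), where 6.82% of all 14228 genes passed. At an unadjusted p under 0.05 there were 2, Fst and Id3, beside 22.7% of all genes, and DESeq2 called the same 2 at its adjusted p, beside 11.2%. From E5.5 to E6.0, 1 of 9 passed, Fst, higher at E6.0, where 4.43% of all genes passed and 1.89% were higher. From E5.0 to E6.0, 2 of 9 passed, a share near that of all genes: Id3 and Fst were both higher at E6.0, and 21.8% of all genes passed and 10.2% were higher. At an unadjusted p under 0.05 there were 4 with edgeR, these and Bmp4 and Smad7, whose fitted levels were lower at E6.0, beside 34.5% of all genes. These comparisons share the embryos of each stage.

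Fst had 14.3, 3.95 and 7.24 CPM at E5.0, 1.16, 3.47 and 4.09 at E5.5 and 28.2, 41.2 and 18.6 at E6.0. The E6.0 embryos lay above all 6 younger embryos, where the stages overlapped through E5.0 embryo 2 and E5.5 embryo 3. From E5.5 to E6.0 the log2 change was 3.33 ± 0.51 (adjusted p = 0.00314), from 2.90 ± 1.55 to 29.3 ± 11.3 CPM (SD, n = 3 each), and it passed with each embryo left out. From E5.0 to E6.0 it was 1.79 ± 0.47 (adjusted p = 0.0181), lost without E5.0 embryo 4 (1.71, adjusted p = 0.0705) or E6.0 embryo 2 (1.45, adjusted p = 0.0773). From E5.0 to E5.5 it was -1.55 ± 0.50 and did not pass (adjusted p = 0.0883), and it passed without E5.0 embryo 2 (-1.84, adjusted p = 0.0370).

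Id3 had 20.6, 11.7 and 3.73 CPM at E5.0, 26.3, 26.3 and 25.6 at E5.5 and 42.7, 47.0 and 34.0 at E6.0. The 3 stages did not overlap and stood in the order of age. From E5.0 to E6.0 the log2 change was 1.80 ± 0.42 (adjusted p = 0.0129), and it passed with each embryo left out. The steps did not pass singly, with 1.12 ± 0.42 to E5.5 (adjusted p = 0.146) and 0.68 ± 0.40 from there to E6.0 (adjusted p = 0.425). The second step passed with both groups fitted alone (0.68, adjusted p = 0.0134). Without E5.0 embryo 1 the first step passed (1.74, adjusted p = 0.0191). The visceral endoderm marker sum was 298 to 839 CPM at E5.0 and 27.8 to 34.5 at E6.0, and the epiblast marker sum 3502 to 3964 and 5465 to 6105. The part of such tissue in the rises of Id3 and Fst was not tested.

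The other targets and inhibitors had no call between stages. Id1 had 12.8, 16.5 and 13.3 CPM at E5.0, 11.8, 25.1 and 23.3 at E5.5 and 17.1, 28.0 and 6.55 at E6.0. Id2 lay between 6.09 and 19.7 CPM in the 9 embryos, and both genes overlapped between all stages. Smad7 was 92.5 to 165.6 CPM at E5.0, 114.0 to 132.3 at E5.5 and 87.3 to 113.4 at E6.0. Its change from E5.0 to E6.0, -0.44 ± 0.19, did not pass (adjusted p = 0.123), and it passed without E5.0 embryo 4 (-0.61, adjusted p = 0.0194) and with no low-count filter (-0.41, adjusted p = 0.0198). Smad6 passed in no stage comparison and lay between 2.22 and 10.98 CPM.

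The embryos held little ligand RNA. Bmp4 was 5.79, 8.58 and 3.73 CPM at E5.0, 6.20, 1.79 and 2.30 at E5.5 and 1.02, 3.69 and 1.75 at E6.0. E6.0 lay below E5.0 with no overlap, by -1.45 ± 0.61, which did not pass (adjusted p = 0.108). Bmp2 was 0.277 to 3.09 CPM over the 9 embryos. E5.0 embryo 2, with the highest visceral endoderm marker sum (839 CPM), also had the highest epiblast values of Bmp2 (3.09 CPM), Bmp4 (8.58 CPM) and Smad6 (10.98 CPM), while E5.0 embryo 1, with a sum of 765 CPM, had 0.362, 5.79 and 4.94 CPM. At E5.5 and E6.0, Bmp2 was highest in embryo 2 and the sum in embryo 1. The part of that tissue in these values was not tested.

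**Figure D4:**
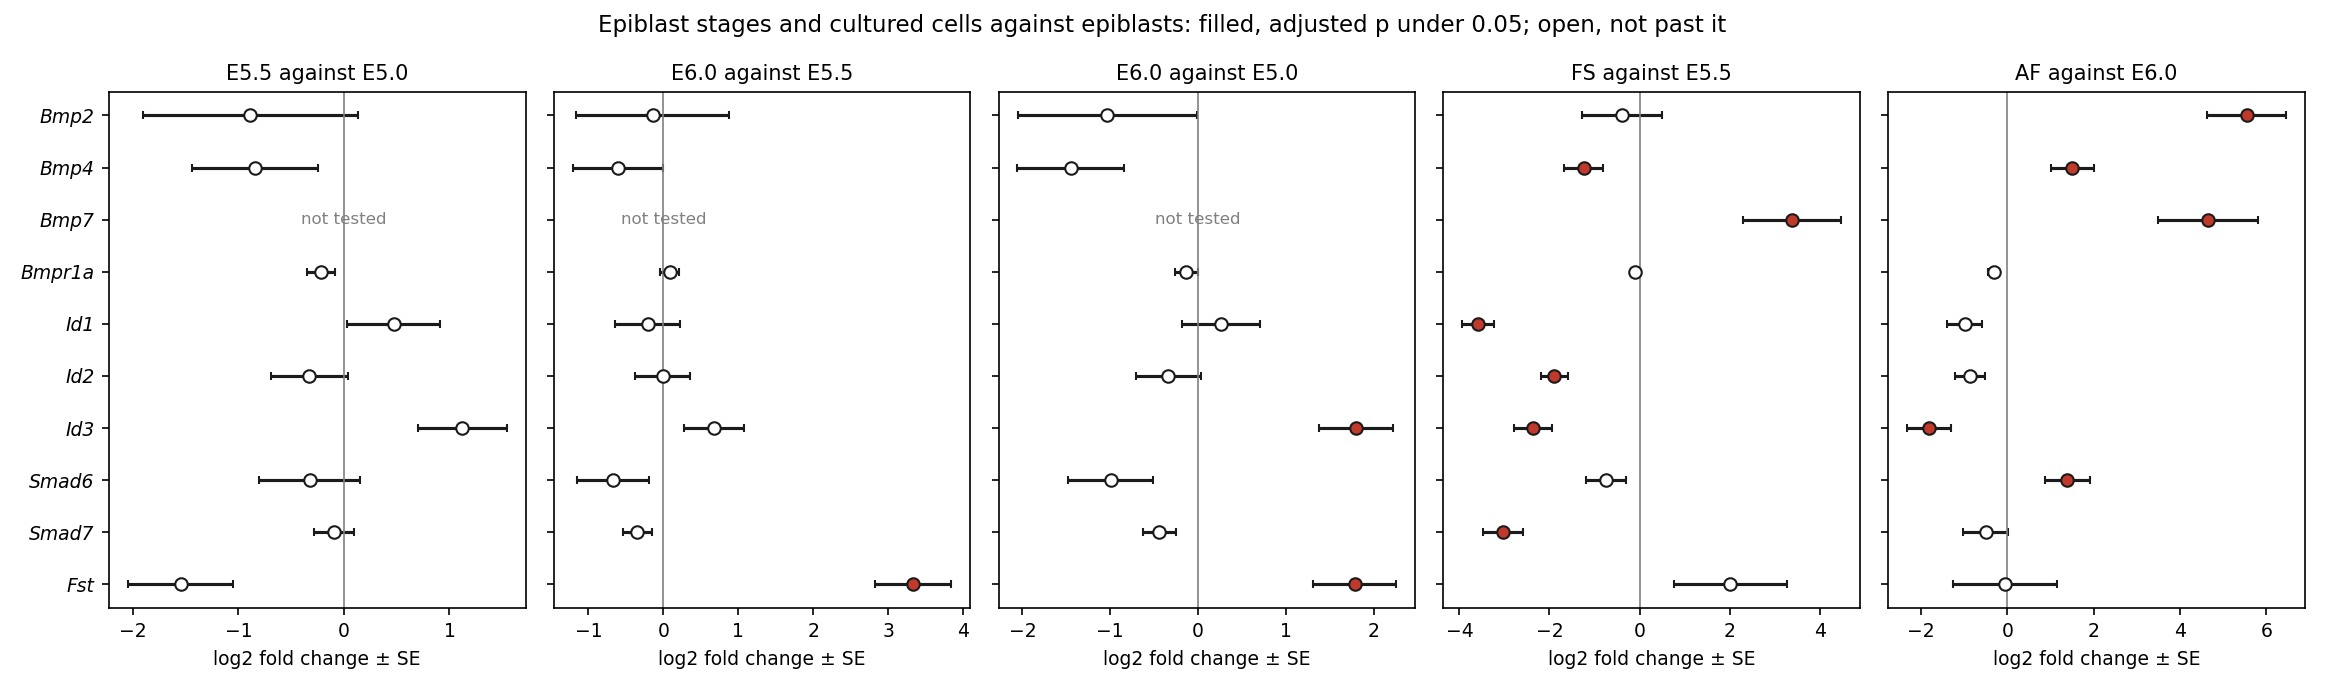
Log2 fold change (horizontal axis) of the 10 genes (vertical axis) between epiblast stages and between cultured cells and epiblasts. Points are edgeR estimates, whiskers are SEs, and filled points have an adjusted p under 0.05. Fst is filled in both comparisons with E6.0 as the first group, and Id1, Id2, Id3 and Smad7 are filled left of 0 in FS against E5.5.

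Set against E5.5 epiblast, FS cells had lower ID genes and Smad7. Of the 10 genes 6 passed, 5 lower and 1 higher, where 43.8% of all 16614 genes passed, 20.8% lower and 23% higher in FS. Id1 was 1.97 ± 0.641 CPM in FS (SD, n = 6) and 20.1 ± 7.25 at E5.5 (SD, n = 3), a log2 change of -3.58 ± 0.36 (adjusted p = 6.27e-08). Id2 changed by -1.89 ± 0.29 (adjusted p = 2.01e-05) and Id3 by -2.36 ± 0.42 (adjusted p = 0.000209). Smad7 was 18.3 ± 11.2 CPM in FS and 124.8 ± 9.59 at E5.5, a change of -3.03 ± 0.45 (adjusted p = 6.03e-05). For these 4 genes no FS library overlapped an E5.5 embryo, and each passed with every library left out in turn. The share of all genes without such overlap is not given here. Bmp4 was lower (-1.24 ± 0.42, adjusted p = 0.0207) and Bmp7 higher (3.39 ± 1.08, adjusted p = 0.0178) in FS, both with overlap. Without E5.5 embryo 1, Bmp4 was at -0.57 (adjusted p = 0.341) and Bmp7 at 2.79 (adjusted p = 0.0727), and without E5.5 embryo 3, Bmp7 was at 3.16 (adjusted p = 0.0739). With FS1 or FS2 as the only FS line, the Bmp4 call was lost (adjusted p = 0.0847 and 0.0673). Bmp7 was lost with FS2 as the only line (1.98, adjusted p = 0.111) and when the 2 groups were fitted alone (3.36, adjusted p = 0.0683). Fst (2.02 ± 1.26, adjusted p = 0.211) did not pass, and was at 0.052 without FS1 passage 10. The visceral endoderm marker sum was 8.67 to 14.2 CPM in FS and 49.1 to 89.8 at E5.5, and the epiblast sum 2058 to 3099 and 4722 to 5119. The feeder sum was higher in FS, at 21.3 to 56.6 against 10.1 to 19.5, and the other sums overlapped. The part of such cells in these differences was not tested.

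AF cells against E6.0 epiblast gave 5 calls of 10, 4 higher and 1 lower, where 35.2% of all genes passed, 18.1% higher and 17.1% lower in AF. The 3 ligands were higher in AF: Bmp2 by 5.54 ± 0.91 (adjusted p = 0.000136), Bmp7 by 4.65 ± 1.15 (adjusted p = 0.00490) and Bmp4 by 1.51 ± 0.50 (adjusted p = 0.0213) on the log2 scale. Smad6 was higher by 1.39 ± 0.52 (adjusted p = 0.0424) and Id3 lower, at -1.81 ± 0.51 (adjusted p = 0.00971). The feeder marker sum was 236 to 283 CPM in AF against 9.81 to 15.2 at E6.0, and the visceral endoderm sum 66.7 to 102 against 27.8 to 34.5. The extraembryonic ectoderm sums overlapped, as did those of the primitive streak. The part of such cells in the differences between AF and E6.0 was not tested. The calls of Bmp2, Bmp7 and Id3 passed with each library left out. Smad6 lost its call with any 1 of the 6 libraries left out, at adjusted p from 0.0543 to 0.149. Bmp4 lost its call without AF passage 15 (1.36), AF passage 16 (1.44), E6.0 embryo 1 (1.16) or E6.0 embryo 3 (1.39). Fst did not pass (-0.06 ± 1.20, adjusted p = 0.976), with AF at 32.4 ± 20.7 and E6.0 at 29.3 ± 11.3 CPM (SD, n = 3 each). Id1 (-0.99 ± 0.40, adjusted p = 0.0613) and Id2 (-0.87 ± 0.35, adjusted p = 0.0531) did not pass, and both passed without E6.0 embryo 3, at -1.36 (adjusted p = 0.0105) and -1.18 (adjusted p = 0.0145).

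Ordered by mean level per kilobase, Id1 ran from FS (1.70 CPM) through AFX (6.42), AF (8.59), E5.0 (12.2) and E6.0 (14.8) to E5.5 (17.3). The differences between the neighbours AFX and AF, and among the epiblast stages, did not pass. Smad7 ran from FS (4.05 CPM) and AFX (4.59), whose difference did not pass, through AF (17.4) to E6.0 (21.4), E5.5 (27.6) and E5.0 (28.8). Fst ran from E5.5 (0.633 CPM) and FS2 (0.773) through E5.0 (1.85), AFX (5.39), FS1 (5.4996) and E6.0 (6.39) to AF (7.06), where AF, AFX and FS1 overlapped each other. The place of FS1 in that order rested on passage 10: its mean Fst level was 25.2 CPM with that library and 3.89 CPM without it, the latter below the E5.0 mean of 8.51 CPM.

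Other genes of the pathway came from a list of 50 in 8 roles, of which 36 could be tested in cultured cells, 29 in epiblasts and 37 across both. For FS against AF, 11 of 36 passed, 1 higher and 10 lower, beside 19.5% of all genes, with a median log2 change of -0.36 beside 0.02 over all genes. The ligand Bmp5 (-4.84 ± 0.72, adjusted p = 0.000306), the target Gata3 (-4.64 ± 0.58, adjusted p = 7.79e-05) and the secreted BMP antagonist Nog (-3.60 ± 0.70, adjusted p = 0.00264) fell most in FS. The type I receptor Bmpr1b rose (1.17 ± 0.36, adjusted p = 0.0330). Against AFX, 6 of 36 passed, all lower, beside 8.7% of all genes, including Bmp5 (-3.64), Nog (-2.85) and the target Msx1 (-2.69).

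Between AFX and AF, 5 of 36 list genes passed, 1 higher and 4 lower, beside 8.73% of all genes. Bambi, a membrane pseudoreceptor that blocks BMP and TGF-beta receptors, was 54.9 ± 3.98 CPM in AFX and 15.8 ± 3.72 in AF (SD, n = 3 each), a change of 1.78 ± 0.39 (adjusted p = 0.0136). Gata3 (-2.63), the SMAD corepressor Skil (-1.08) and the type II receptor Bmpr2 (-0.79) fell in AFX. The feeder, visceral endoderm and primitive streak sums given above were also higher in every AF library than in any FS or AFX library, and their part in the list's differences from AF was not tested. Between the FS lines, Bambi was higher (1.18 ± 0.22, adjusted p = 0.00601) and the co-receptor Rgma lower (-2.24 ± 0.45, adjusted p = 0.0166) in FS2, and these were the only 2 of 36 that passed, beside 3.85% of all genes.

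**Figure D5:**
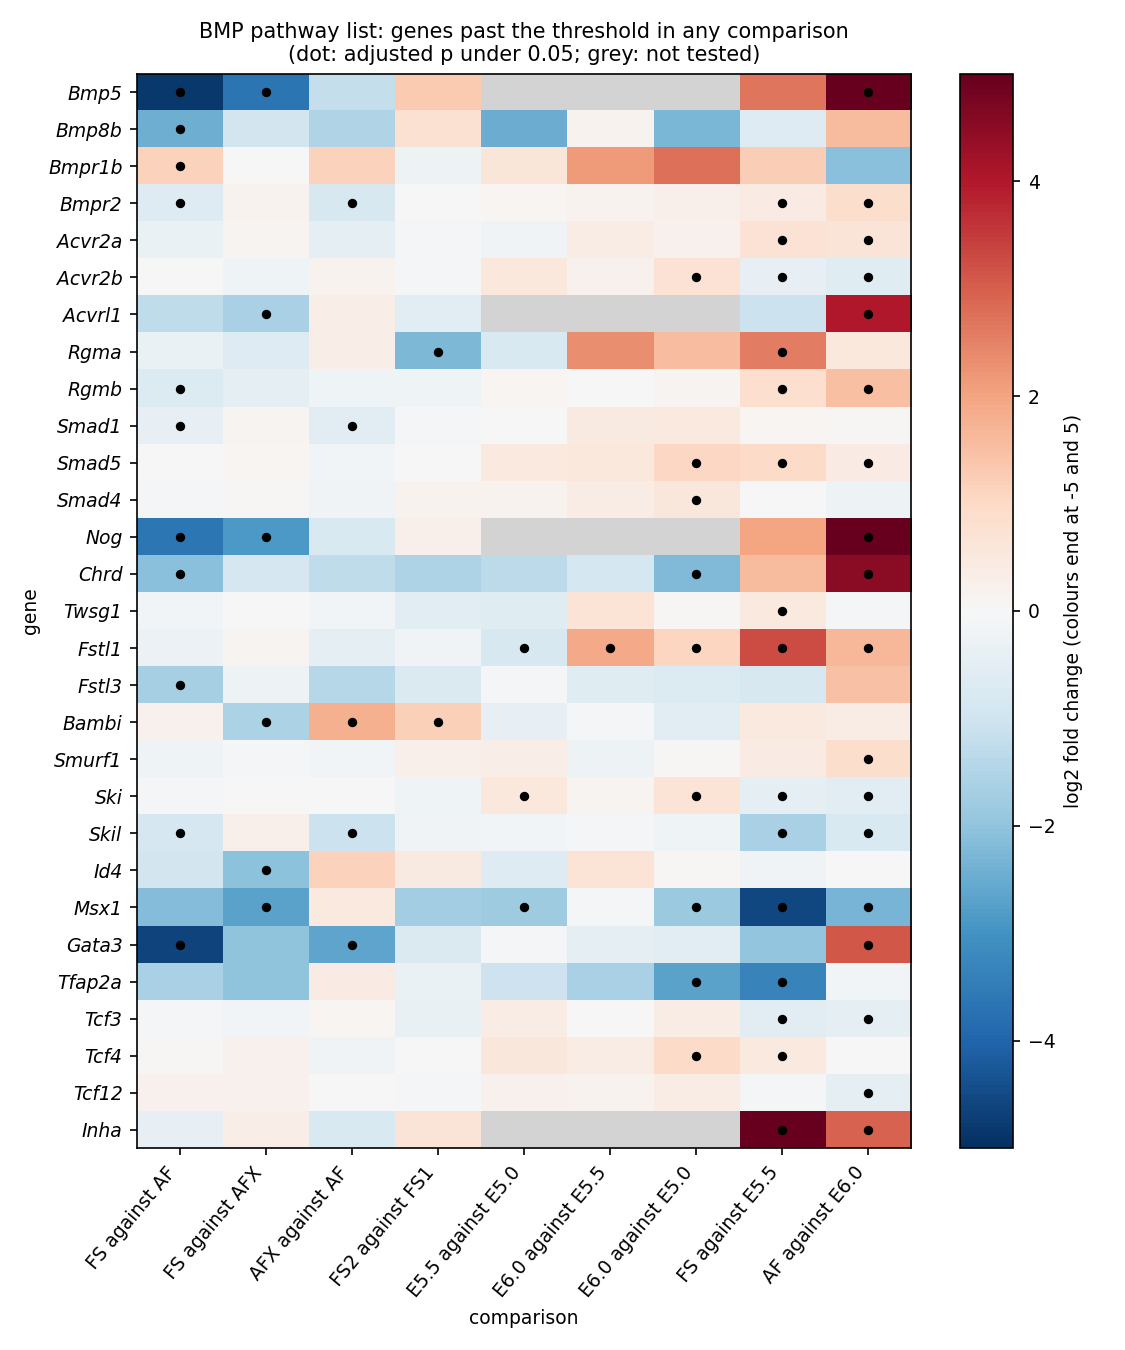
Log2 fold change by colour, ending at -5 and 5, for the 29 of 50 pathway list genes (vertical axis) that passed in any of the 9 comparisons (horizontal axis). Dots mark an adjusted p under 0.05 and grey marks genes not tested. Bmp5 and Nog are blue with dots in FS against AF and FS against AFX, and Fstl1 is red with dots in FS against E5.5 and E6.0 against E5.5.

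In the epiblast, the follistatin-like gene Fstl1 was lowest at E5.5 and highest at E6.0, as was Fst. Fstl1 was 17.7 ± 5.16 CPM at E5.0, 10.3 ± 1.37 at E5.5 and 37.7 ± 1.71 at E6.0 (SD, n = 3 each), with log2 changes of -0.80 ± 0.21 to E5.5 (adjusted p = 0.0378) and 1.89 ± 0.21 from E5.5 to E6.0 (adjusted p = 0.000132). From E5.0 to E5.5, 1 of 29 list genes passed as higher (Ski, 0.53) and 2 as lower (Msx1, -1.79, and Fstl1), beside 6.82% of all genes. From E5.5 to E6.0, Fstl1 was the 1 gene of 29 that passed, beside 4.43% of all genes. From E5.0 to E6.0, 9 of 29 passed, beside 21.8% of all genes. Higher were 6, among them the BMP transducer Smad5 (1.03) and Tcf4 (0.95), an E protein that ID proteins bind. Lower were 3, Tfap2a (-2.67), the antagonist Chrd (-2.20) and Msx1 (-1.84), the last from 20.1 ± 2.25 to 5.53 ± 2.41 CPM (SD, n = 3 each). The visceral endoderm marker sum was also highest at E5.0, and its part in these falls was not tested.

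Across culture and embryo, 15 of 37 list genes passed for FS against E5.5, 9 higher and 6 lower in FS, a share near the 43.8% of all genes that passed. Fstl1 was 119.2 ± 12.8 CPM in FS (SD, n = 6) against 10.3 ± 1.37 (3.28 ± 0.18, adjusted p = 5.86e-12), and Rgma was higher too (2.55). The inhibin subunit Inha had no counts at E5.5 and was at least 3.32-fold higher in FS against 3 counts per library. Msx1 (-4.56), Tfap2a (-3.36) and Skil (-1.63) were lower. In AF against E6.0, 18 of 37 passed, 12 higher and 6 lower, beside 35.2% of all genes. Bmp5 had no counts at E6.0 and was at least 7.78-fold higher in AF by the same floor, Nog (5.21) and Chrd (4.53) were higher, and Msx1 (-2.33), Skil (-0.75) and Acvr2b (-0.60) were lower.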

How the data were processed

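Total RNA of 12 cultured samples and 9 single epiblasts was isolated with a PicoPure kit, per the labels' protocols. The authors deposited 1 table of raw, unnormalised counts for each gene. The submitters' processing notes name Trim Galore, TopHat2 2.1.0, featureCounts 1.5.0 and the build mm10 (GRCm38). Their settings, the annotation and the strand setting are not given in the sources used here. Groups came from titles. Exon lengths and positions came from GENCODE M21, which matched 33683 of 33861 genes.

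CPM was computed from the counts and each library's total. Tests used edgeR 4.0.16 (R 4.3.3; filterByExpr, TMM scaling, robust quasi-likelihood fits) on 12 cultured libraries, 9 epiblasts or all 21, with FS1 and FS2 pooled as FS except where lines were compared. SE is the log2 change over the square root of F. The fits were tested on simulated counts, where they called 30% to 43% of 2-fold changes and 65% to 76% of 4-fold changes. A difference that did not pass therefore does not show equal levels. Alternatives were DESeq2 1.42.0, its size factors, other filters, lines taken singly, groups alone, the replicate number as a block, libraries left out, and ribosomal RNA genes left out. Named genes were the 10 members and, of the pathway list, up to 3 higher and 3 lower genes per comparison with the largest change. The members, lists and tests were chosen with earlier results of these data known. Leaving out ribosomal RNA genes with 3 similar loci was added after seeing the data. Low levels rest on few reads (Bmp7 had at most 15 counts in any epiblast). Intervals cover counting error only.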

Additional observations from a re-analysis of the deposited data

Results flagged for a closer look

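In FS, Bmpr1a was 82.8 CPM in FS1 passage 11 and 103.9 to 113.2 CPM in the other 5 libraries, a gap to the nearest library of 0.695 of the group's range, above Dixon's 95% critical value of 0.625 for 6 libraries. Fst was 67.9 CPM in FS1 passage 10 and 7.61 CPM or less in the other 5, a gap of 0.890 of the range. Chance alone marks about 1 in 20 groups in this way. Smad6 differed between the FS lines by a log2 change of -1.45, so the changes of the lines against AF or AFX also differed. That call was lost with any 1 of the 6 FS libraries left out.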

How the results depend on the processing

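Calls that passed with each library left out, and under the other alternatives in which the gene was tested, were Bmp2, Bmp4 and Id1 for FS against AF, Bmp2 and Id1 for FS against AFX, Bmp4 for AFX against AF, Id3 for E6.0 against E5.0, Id1, Id2, Id3 and Smad7 for FS against E5.5, and Bmp2, Bmp7 and Id3 for AF against E6.0. The limits are 3 libraries a group and few reads for Bmp2 in FS and for Bmp2 (at most 18 counts) and Bmp7 in epiblasts, which the calls of both for AF against E6.0 rest on. The cause of the changes below was not tested, apart from fewer genes or libraries where the setting removes them.

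Of the 10 genes, FS against AF gave 5 calls with FS1 alone, 9 with FS2 alone and 8 with the lines as separate groups, beside 6. With a library left out it gave 4 to 7. FS against AFX gave 6 calls with FS2 alone, beside 3. AFX against AF gave 3 with DESeq2, 0 with a mean of at least 5 CPM (which removes Bmp4), 4 with both groups alone and 1 to 2 with a library left out, beside 1. FS2 against FS1 gave 2 with DESeq2, 5 with no low-count filter, 0 with both groups alone and 0 to 1 with a library left out, beside 1. E5.5 against E5.0 gave 2 with DESeq2, 2 with no filter and 0 to 1 with a library left out, beside 0. E6.0 against E5.5 gave 2 with both groups alone, beside 1. With a library left out, E6.0 against E5.0 gave 1 to 2 and AF against E6.0 gave 3 to 5, beside 2 and 5. The shares of all genes called moved as well. For FS against AF the share was 20.3% with a mean of at least 5 CPM, 13.9% with FS1 alone and 21.8% with FS2 alone, beside 19.5%. It was 23.6% with the lines as separate groups and 13.6% to 21.1% with a library left out. With no filter, where 29996 genes were tested rather than 16052, it was 10.2%. For FS against AFX it was 12.2% with FS2 alone, 6.87% with FS1 alone, 9.43% with a mean of at least 5 CPM and 4.51% with no filter, beside 8.7%. For AFX against AF it was 12.2% with DESeq2, 10.1% with a mean of at least 5 CPM, 7.86% with both groups alone and 4.43% with no filter, beside 8.73%. For FS2 against FS1 it was 6.85% with DESeq2, 4.33% with no filter and 7.15% with both groups alone, beside 3.85%. For E5.5 against E5.0 it was 11.2% with DESeq2, 6.23% with no filter and 3.34% with both groups alone, beside 6.82%. For E6.0 against E5.5 it was 7.56% with DESeq2, 4.15% with no filter, 6.58% with a mean of at least 5 CPM and 10.7% with both groups alone, beside 4.43%. For E6.0 against E5.0 it was 13.5% with no filter, beside 21.8%. Also with no filter, it was 22.5% for FS against E5.5, beside 43.8%, and 16.7% for AF against E6.0, beside 35.2%.

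Of the pathway list, FS against AF gave 5 of 20 tested with a mean of at least 5 CPM and 6 of 34 with FS1 alone, beside 11 of 36. With a library left out it gave 7 to 11. FS against AFX gave 1 of 20 with a mean of at least 5 CPM and 2 of 34 with FS1 alone, beside 6 of 36. With a library left out it gave 3 to 7. AFX against AF gave 3 to 5 with a library left out, beside 5 of 36. FS2 against FS1 gave 4 of 36 with DESeq2, 5 of 50 with no filter and 1 to 2 with a library left out, beside 2 of 36. E5.5 against E5.0 gave 5 of 29 with DESeq2, 8 of 48 with no filter and 0 to 4 with a library left out, beside 3 of 29. E6.0 against E5.5 gave 3 of 29 with DESeq2, 3 of 48 with no filter, 3 of 26 with both groups alone and 2 of 19 with a mean of at least 5 CPM. With a library left out it gave 1 to 2, beside 1 of 29. E6.0 against E5.0 gave 14 of 48 with no filter, beside 9 of 29. The shares of all genes under the settings named here, other than a library left out, are given above.

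The passage or embryo number was also fitted as a block. Same-numbered AF and AFX libraries correlated at -0.206, -0.148 and 0.301, beside -0.393 to 0.419 for AF and AFX libraries of unlike number. Same-numbered E5.5 and E6.0 embryos correlated at 0.105, -0.114 and 0.105. With 3 libraries a group, these values cannot tell whether such samples share more than a number. The replicate block for AFX against AF was fitted on these 2 groups alone, so its base is the fit of both groups alone: it gave 4 calls of the 10 genes (Bmp4, Smad7 at -2.22, Bmp2 at -1.87 and Smad6 at -1.48), beside 4 without the block, and 3 of the list, beside 4. E5.5 against E5.0 gave 0 of the list, and E6.0 against E5.5 gave 0 of the 10 genes (Fst at 3.32, adjusted p = 0.0547) and 2 of the list. In E6.0 against E5.0 with the block, Fst was at 1.67 (adjusted p = 0.212) and Smad7 passed (-0.62, adjusted p = 0.0278).

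Changes of sign occurred only in differences that did not pass. For FS against AFX, Bmpr1a was -0.023 with FS1 alone, and Smad6 was 0.0054 with DESeq2, 0.0023 with no filter and 0.57 with FS1 alone. For E6.0 against E5.5, Id2 was 0.0029 with DESeq2's size factors, 0.0026 with DESeq2 and 0.0052 with no filter. Bmp2 for FS against E5.5 was 0.55 with FS1 alone, and Fst for AF against E6.0 was 0.0088 with a mean of at least 5 CPM.
With a library left out, some log2 changes spanned 0. For FS against AFX the ranges were Smad6 -0.20 to 0.20, Smad7 -0.62 to 0.71. For AFX against AF the ranges were Bmp7 -0.37 to 0.043, Id3 -0.61 to 0.14, Fst -1.10 to 0.12. For FS2 against FS1 the ranges were Bmp4 -0.23 to 0.10, Smad7 -0.81 to 0.54. For E5.5 against E5.0 the ranges were Bmp2 -1.66 to 0.54, Smad6 -0.62 to 0.35, Smad7 -0.27 to 0.17. For E6.0 against E5.5 the ranges were Bmp2 -0.91 to 0.62, Bmp4 -1.25 to 0.13, Bmpr1a -0.021 to 0.16, Id1 -0.80 to 0.17, Id2 -0.35 to 0.30. For E6.0 against E5.0 the ranges were Bmp2 -1.81 to 0.39, Id1 -0.32 to 0.66. For FS against E5.5 the ranges were Bmp2 -1.03 to 0.34. For AF against E6.0 the ranges were Fst -0.57 to 0.36.

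Over all genes, the count of calls moved by over 1.5 times in these comparisons. FS against AFX, 1397, was 819 to 1485 with a library left out. AFX against AF, 1401, was 732 to 1129 with a library left out, 1175 with both groups alone and 907 with both groups alone and the replicate block. FS2 against FS1, 618, was 316 to 478 with a library left out, 1099 with DESeq2, 1298 with no filter and 1051 with both groups alone. E5.5 against E5.0, 971, was 371 to 1259 with an embryo left out, 1590 with DESeq2, 1659 with no filter, 453 with both groups alone and 421 with the block. E6.0 against E5.5, 631, was 238 to 372 with an embryo left out, 1075 with DESeq2, 1107 with no filter and 1445 with both groups alone. E6.0 against E5.0, 3100, was 1904 to 3363 with an embryo left out.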

Other observations

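The genes whose pattern over the 7 group means of log2(CPM + 1) was most like each of the 10 were listed by Pearson r among 10252 genes that reached 10 CPM in a group. The points share libraries, and r over 7 points is a description. For Bmp2 the nearest were Myl12a (0.985), Lgr5 (0.982) and Cer1 (0.978). For Bmp4 they were Gata4 (0.983), Pga5 (0.983) and Itpr3 (0.978), and for Smad7 2210016F16Rik (0.997), Pim1 (0.987) and Unc5b (0.985). For Id1 they were Evpl (0.997), Gstt2 (0.993) and Dusp4 (0.973), and Evpl was also near Id2 (0.971). For Fst no gene passed 0.943 (Mogat2). Among the 10 themselves, Id1 was most like Id2 (0.954) and Smad7 (0.894), and less like Id3 (0.814).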
